A study of Mus musculus with 92 samples.

Results

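Collagens are built from alpha chains, 3 of which wind around each other in every molecule, and each chain has its own gene. The collagen chain genes were taken as the gene rows whose symbol follows the pattern Col, number, a, number, which gave 44 of the 23811 genes in the expression table. They comprised 11 chains of fibril-forming collagens, 8 chains of the basement membrane types IV, XV and XVIII, 6 chains of type VI and 19 other chains. In the study, the left tibialis anterior (TA) muscle, a shin muscle, of male C57BL/6J mice was injured for 10 s with a steel probe at the temperature of dry ice. The injured TA and the TA of the other, right leg (control) were taken 3, 10, 24, 48 and 72 h and 7, 14, 21 and 28 d later for poly(A) RNA sequencing. All mice were 10 weeks old and carried no engineered allele, and every control came from an animal whose other leg was injured, so no muscle of an uninjured animal was compared. The libraries used numbered 37 injured and 39 control. In time order the groups held 2, 5, 5, 3, 5, 3, 5, 4 and 5 injured libraries, against 3, 5, 5, 4, 5, 4, 5, 3 and 5 control libraries, and 36 animals contributed both legs.

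Fibril-forming chains (types I, III, V, XI and others) assemble into the cross-banded fibrils that give connective tissue its tensile strength, and in muscle they fill the layers around fibers and fascicles. Type IV chains form the sheet-like network of the basement membrane that wraps each muscle fiber and capillary, type XV and type XVIII lie beside it, and type VI makes beaded microfilaments that join the basement membrane to the fibrils around it. After muscle injury, fibroblasts and fibro-adipogenic progenitors are known as main producers of the fibrillar chains. In bulk tissue a lower or higher level of a transcript can reflect the number of cells of a type or the RNA per cell, and these cannot be told apart.

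Promoter sequence was available for 35 of the 44 members, as 38 windows of 250 bases before to 50 bases after a RefSeq transcription start (GRCm38.p6). The 4 windows below are shown because they belong to the chains at the highest levels of the fibril-forming and the basement membrane class. The capitals mark the motif CCAAT, the motif GGGCGG or the motif TATAAA on either strand, and each window is written 5′ to 3′ on the strand of its gene. The windows lie at chr1:45311288-45311587 (Col3a1, plus strand), chr6:4505368-4505667 (Col1a2, plus strand), chr8:11312777-11313076 (Col4a1, minus strand) and chr8:11312555-11312854 (Col4a2, plus strand).
Col3a1: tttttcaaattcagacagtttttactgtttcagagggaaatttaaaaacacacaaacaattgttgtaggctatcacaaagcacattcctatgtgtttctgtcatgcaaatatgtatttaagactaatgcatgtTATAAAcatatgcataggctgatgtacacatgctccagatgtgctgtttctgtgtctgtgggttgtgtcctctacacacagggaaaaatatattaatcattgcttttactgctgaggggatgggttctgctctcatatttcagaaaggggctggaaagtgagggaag
Col1a2: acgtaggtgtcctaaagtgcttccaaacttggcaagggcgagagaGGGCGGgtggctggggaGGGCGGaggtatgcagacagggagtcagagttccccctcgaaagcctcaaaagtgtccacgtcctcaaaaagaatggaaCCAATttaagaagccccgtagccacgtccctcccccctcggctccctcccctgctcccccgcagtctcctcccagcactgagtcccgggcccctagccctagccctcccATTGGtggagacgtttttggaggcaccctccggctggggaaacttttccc
Col4a1: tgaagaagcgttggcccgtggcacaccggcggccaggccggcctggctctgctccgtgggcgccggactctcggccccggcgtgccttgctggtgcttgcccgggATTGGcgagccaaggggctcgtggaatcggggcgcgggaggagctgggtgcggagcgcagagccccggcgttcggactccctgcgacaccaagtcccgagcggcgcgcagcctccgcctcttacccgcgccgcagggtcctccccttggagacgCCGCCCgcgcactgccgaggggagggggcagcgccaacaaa
Col4a2: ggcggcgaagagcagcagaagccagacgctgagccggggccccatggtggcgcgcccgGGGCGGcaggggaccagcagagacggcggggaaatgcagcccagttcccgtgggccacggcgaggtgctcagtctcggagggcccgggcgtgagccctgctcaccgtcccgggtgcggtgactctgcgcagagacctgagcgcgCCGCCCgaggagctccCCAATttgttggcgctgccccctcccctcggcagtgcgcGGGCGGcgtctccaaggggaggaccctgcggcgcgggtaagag
The Col3a1 window was 37.7% G and C and held 1 TATAAA, with no CCAAT or GGGCGG. The Col1a2 window (61.0% G and C) held 2 CCAAT and 2 GGGCGG. The Col4a1 window (74.0%) held 1 CCAAT and 1 GGGCGG, and the Col4a2 window (73.7%) held 1 CCAAT and 3 GGGCGG. Col4a1 and Col4a2 are transcribed head to head, and their windows shared 78 bases, so that the motifs within these bases count for both. Of the 38 member windows, 23 held GGGCGG (22 of 35 genes), against 35.7% of all 32851 promoter windows. CCAAT stood in 13 of 38 windows (13 of 35 genes), against 37.4% of all windows. TATAAA stood in 5 of 38 windows (5 of 35 genes), against 13.6%. These matches describe the letters in the windows, and no factor's binding was measured.

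Levels are given as FPKM (fragments per kilobase of transcript, scaled to the mapped fragments of the library), which can be set side by side between genes. The depth of each library is unknown, since FPKM hold no counts. The FPKM of 1 library summed over all genes to between 287291 and 828110, and 5611 to 11572 genes exceeded 1 FPKM. Both extremes bear on the results: the 2 libraries of animal 02 at 7 d had the sums furthest above the others at that time (828110 injured and 755535 control, against 372804 to 416162), and the control of animal 02 at 72 h had 5611 genes above 1 FPKM, against 8743 to 8822 in the other controls of that time. The 6 muscle fiber markers (Ckm, Acta1, Tnnt3, Pvalb, Mb and Atp2a1) summed to between 9998 and 78405.4 FPKM over all times, although Acta1, Ckm, Pvalb, Tnnt3 and Atp2a1 were listed at 0 in single libraries. A listed 0 can therefore be a failed estimate here. The lowest sum came from the injured TA of animal 03 at 21 d, where Acta1, Ckm, Pvalb and Tnnt3 were listed at 0 while Mb was at 5990.01 FPKM, and the other injured libraries of 21 d summed to 49175.6 to 60638.4 FPKM. The injured libraries of animals 01 and 02 at 14 d were at control level for the collagens and for markers of macrophages and fibroblasts, and whether their labels are right was not tested. A further injured library of 7 d (animal 05) and a control of unknown time were left out. In that injured library 262 genes exceeded 1 FPKM and 4 members were above 0, among them Col3a1 at 914 FPKM, while Col1a2 and Col4a1 were listed at 0.

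In control muscle Col3a1, the single chain of type III collagen, had the highest median of the members, 13.0 FPKM over the 39 control libraries. Col1a2 followed at 10.1 FPKM, Col4a1 at 7.16 FPKM and Col4a2 at 4.35 FPKM, and then came Col6a1 at 4.22 FPKM and Col1a1 at 3.67 FPKM. The ranges over the control libraries overlapped for each of these neighbours in the order, so that their order was not the same in every library. In all, 21 of the 44 members reached a mean of 1 FPKM in at least 1 group and entered the test: 7 fibril-forming, 4 basement membrane, 3 type VI and 7 other chains. The lowest of the 21, Col9a1, reached a highest group mean of 1.08 FPKM, and the highest of the 23 members below the limit, Col23a1, reached 0.983 FPKM. For Col8a1, Col12a1, Col16a1 and Col18a1 no control library reached 1 FPKM (highest 0.827, 0.438, 0.569 and 0.883 FPKM). They passed the limit only through injured groups where they were high, so their higher calls are not independent of the filter. Col14a1 had a control median of 0.267 FPKM and its highest injured group mean, 7.47 FPKM, at 7 d.

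**Figure D1:**
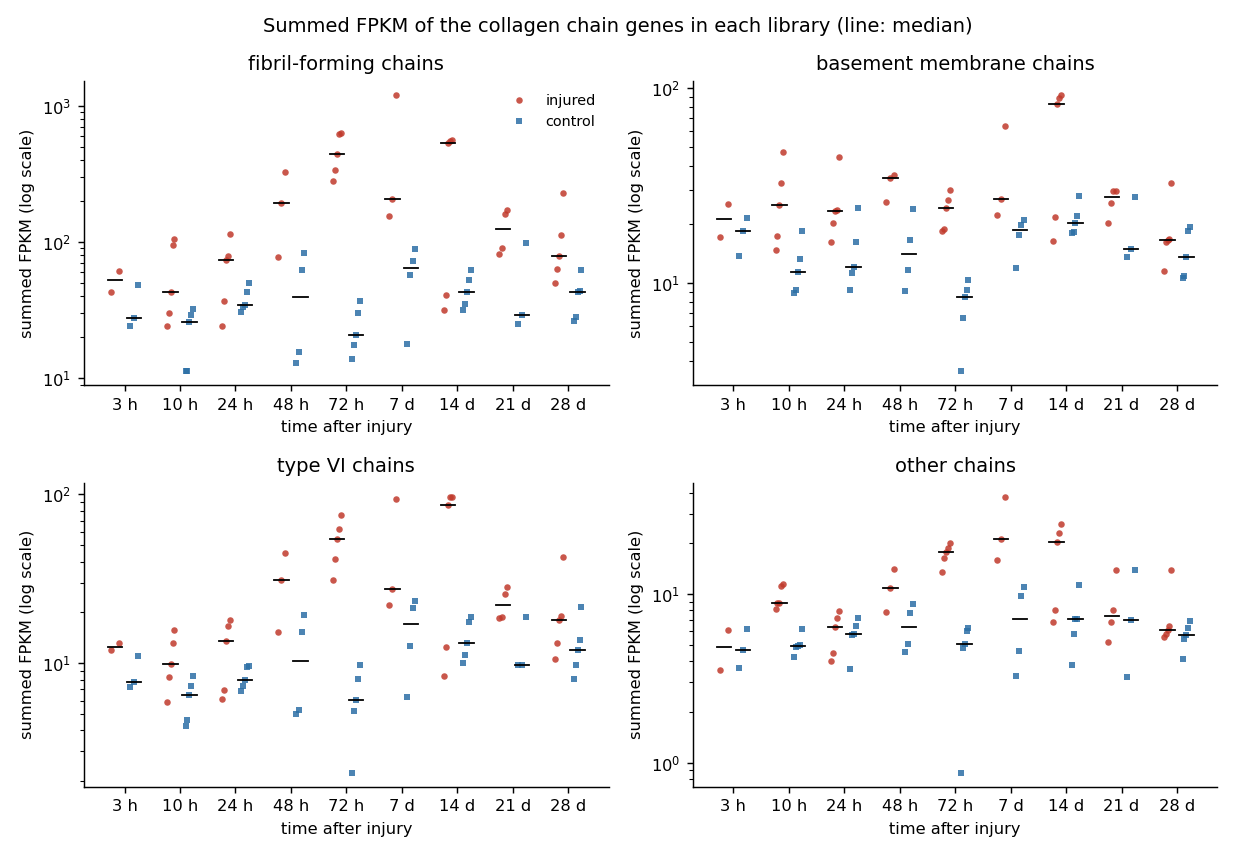
Summed FPKM of the members of each class (1 panel per class, log axes) against time after injury, injured libraries in red left of control libraries in blue, 1 point per library and a line at the median. At 72 h the fibril-forming sums of the injured libraries lie between 279.9 and 625.3 FPKM, above the control sums of 14.0 to 37.2 FPKM, and at 14 d 2 of the 5 injured libraries lie low in every panel.

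Summed over all 44 members, collagen transcripts were 90.9 ± 21.9 FPKM in injured muscle and 64.8 ± 19.2 FPKM in control muscle at 3 h (SD, n = 2 and 3). At 10 h the sums were 107 ± 53.8 FPKM in injured and 45.5 ± 14.9 FPKM in control muscle (SD, n = 5 each). At 24 h they were 109 ± 47.5 FPKM in injured and 66.9 ± 13.1 FPKM in control muscle (SD, n = 5 each), and at 48 h they were 272 ± 146 FPKM in injured and 76.7 ± 48.8 FPKM in control muscle (SD, n = 3 and 4). At 72 h injured muscle held 555 ± 181 FPKM and control muscle 42.4 ± 16.6 FPKM (SD, n = 5 each). The injured sums then spread widely, with 632 ± 663 FPKM in injured and 99.8 ± 42.8 FPKM in control muscle at 7 d (SD, n = 3 and 4) and 479 ± 371 FPKM in injured and 87.3 ± 16.7 FPKM in control muscle at 14 d (SD, n = 5 each). At 21 d the sums were 183 ± 55.7 FPKM in injured and 90.4 ± 59.5 FPKM in control muscle (SD, n = 4 and 3), and at 28 d they were 154 ± 95.8 FPKM in injured and 74.0 ± 23.0 FPKM in control muscle (SD, n = 5 each). The injured and control sums did not overlap at 48 h, 72 h and 7 d, while at 14 d the lowest injured sums, 70.0 and 76.6 FPKM, lay within the control range of 68.6 to 104.8 FPKM.

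Gene by gene, injured and control libraries were compared at each time with limma on log2(FPKM + 0.1), which understates changes of genes near 0. All 12099 genes whose mean reached 1 FPKM in some group were fitted together, and a gene was called at a Benjamini-Hochberg adjusted p under 0.05 and a difference of at least 2-fold. No member was called at 3 h, when 1.74% of all genes were, and no member had an unadjusted p under 0.05. At 10 h 6 members were called higher and none lower, against 11.8% of all genes higher and 0.438% lower. At 24 h 2 were higher and 1 lower (17.6% and 0.661% of all genes), and at 48 h 15 were higher and 1 lower (33.1% and 1.56%). These early counts leaned on single libraries and on the scaling. At 10 h no member was called without the injured TA of animal 01, 1 without that of animal 03, and 1 to 3 without the control of animal 01, 02, 04 or 05. At 24 h 1 was called without the injured TA of animal 05 and 5 without that of animal 01. At 48 h 6 were called without the injured TA of animal 04, 8 without the control of animal 04 and 9 without the control of animal 05. After quantile normalisation 1 member was called higher and none lower at 10 h (6.74% and 2.1% of all genes). In the same fit no member was higher at 24 h and 4 were lower (8.89% and 5.6%), while at 48 h 4 members were higher and 3 lower (13.8% and 14.0%).

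The count was highest at 72 h, with 17 of 21 members called higher and 1 lower, against 50.2% of all genes higher and 0.612% lower. At 7 d 12 members were higher and none lower (21.6% and 1.95% of all genes), and at 14 d 10 were higher and none lower (2.89% and 0.0331%). No member was called at 21 d or 28 d, when 0.00827% and 0.0827% of all genes were called in either direction. At an unadjusted p under 0.05, 4 members (Col3a1, Col5a2, Col6a3 and Col24a1) differed at 21 d and 3 (Col3a1, Col5a2 and Col24a1) at 28 d. With library weights in limma, 6 members were called higher at 21 d and 2 at 28 d, against 3.27% and 0.612% of all genes.

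The median log2 difference of the 21 tested members, injured minus control, was 0.41, 0.89, 0.45, 1.55, 3.03, 1.86, 1.44, 0.83 and 0.57 at the 9 times in order. Over all genes tested the median was −0.28, 0.20, 0.29, 0.63, 1.01, 0.31, 0.17, 0.03 and −0.02 in the same order. The level of all genes at 72 h depended on the scaling of the libraries: after quantile normalisation their median was −0.28, 17.5% were called higher and 20.0% lower, and 13 members were called higher and 4 lower (Col7a1, Col9a1, Col22a1 and Col24a1). With upper-quartile scaling the median of all genes was 0.21, 27.3% of all genes were called higher, and so were 14 members, with 1 lower.

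**Figure D2:**
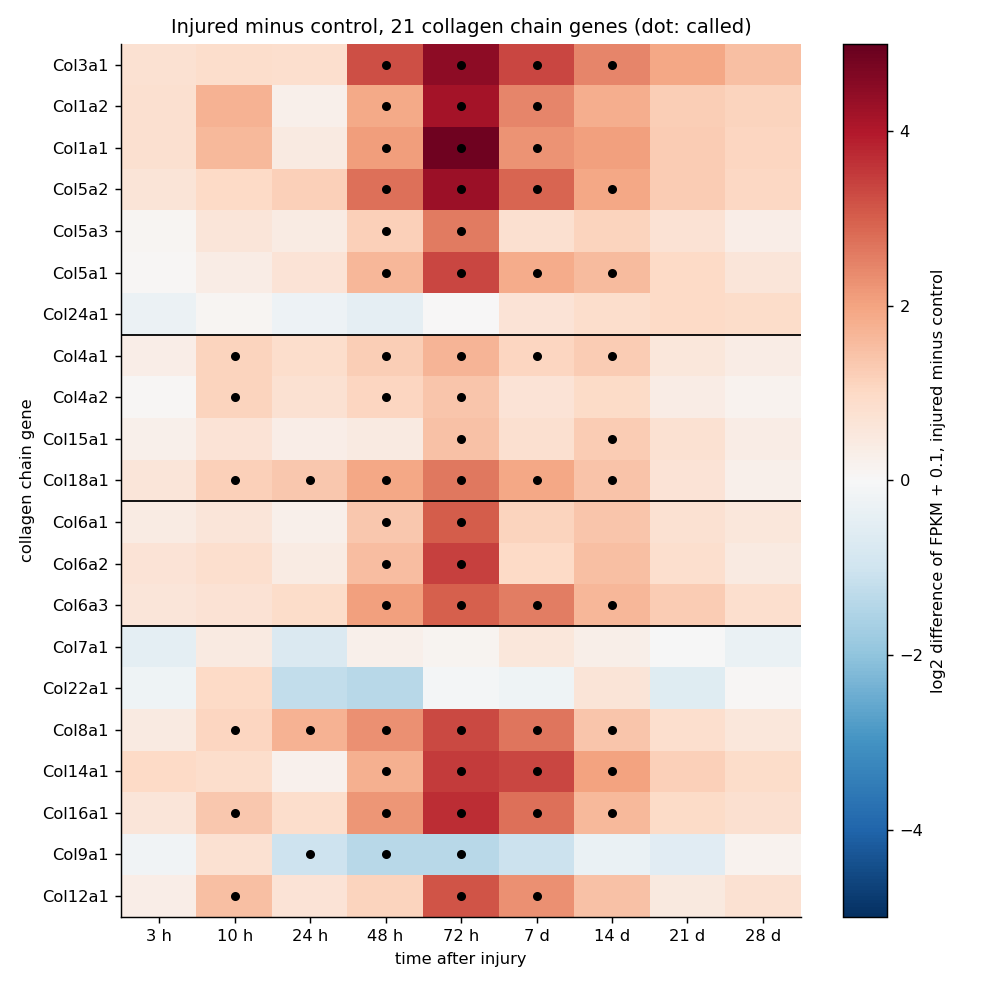
Log2 difference of FPKM + 0.1, injured minus control (color scale, red for higher and blue for lower in injured muscle), of the 21 tested members from top to bottom, in blocks by class, at the 9 time points from left to right, with a dot on each called difference. At 72 h the fibril-forming chains other than Col24a1 lie between 2.60 and 4.85 and the type VI chains between 3.01 and 3.41, whereas Col4a1, Col4a2 and Col15a1 lie between 1.40 and 1.69.

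Fibril-forming chains were called higher for 6 of 7 tested members at 48 h and 72 h, 5 at 7 d and 3 at 14 d. Of all genes 33.1%, 50.2%, 21.6% and 2.89% were called higher at these times. No fibril-forming chain was called at 10 h or 24 h (11.8% and 17.6% of all genes higher). After quantile normalisation Col1a2 was called higher at 10 h and 2 chains at 48 h. With upper-quartile scaling 3 chains were called higher at 48 h. The median log2 difference of the 7 tested chains at 72 h was 4.14 in the fit described above. The same 6 chains (Col1a1, Col1a2, Col3a1, Col5a1, Col5a2 and Col5a3) were called higher at 72 h in every scaling tried. At 72 h all 6 fibroblast and fibro-adipogenic progenitor markers (Pdgfra, Ly6a, Thy1, Dpt, Cd34 and Pdgfrb) were also called higher, against 50.2% of all genes. These 6 markers summed to 164 to 406 FPKM in injured and to 42.3 to 56.6 FPKM in control muscle, with no marker at 0. All 6 macrophage markers were called higher too, beside the same share of all genes. The macrophage sums were 1391 to 5595 FPKM in injured and 10.8 to 53.1 FPKM in control muscle. The part of either cell type in the collagen levels was not tested.

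Col3a1 (chromosome 1, 45368382 to 45406551, mm9) encodes the chain of type III collagen, which is common in distensible tissue and early scars. At 24 h, in order of animal number, its level was 10.8, 33.6, 18.2, 51.8 and 34.3 FPKM in injured TA, against 12, 21.0, 12.1, 15.6 and 13.3 FPKM in control TA. The groups overlapped, and the log2 difference of 0.84 was not called (SE 0.59, adjusted p = 0.28). At 72 h Col3a1 was at 143, 168.3, 272, 273 and 234 FPKM in injured TA, against 11.1, 7.73, 7.36, 8.32 and 14.2 FPKM in control TA. Every injured library lay above every control, with a log2 difference of 4.47 (SE 0.59, adjusted p = 1.04e-09). At 7 d Col3a1 was at 782, 102 and 82.0 FPKM in the injured TA of animals 02, 03 and 04, against 37.5, 13.5, 7.56 and 29.2 FPKM in the controls of animals 02 to 05. The groups did not overlap, although animal 02 stood far above the other injured libraries, and the log2 difference was 3.34 (SE 0.71, adjusted p = 0.0002). At 14 d Col3a1 was at 15.3, 15.2, 319, 305 and 253 FPKM in injured TA, against 18, 13.1, 16.6, 14.0 and 20.6 FPKM in control TA. Thus 3 of the 5 injured libraries were far above the controls and 2 lay among them, and the log2 difference was 2.46 (SE 0.59, adjusted p = 0.0151). At 21 d the groups again did not overlap, with Col3a1 at 77.3, 101, 51.7 and 38.4 FPKM in injured TA and 11.5, 10.7 and 35.6 FPKM in control TA, but the adjusted p of the log2 difference of 1.93 was 0.822.

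Col1a1 (chromosome 11, 94797583 to 94813170) and Col1a2 (chromosome 6, 4455696 to 4491543) encode the chains of type I collagen, the main fibrillar collagen of tendon, bone and scar. Col1a1 had a log2 difference of 4.85 at 72 h (SE 0.70, adjusted p = 1.13e-08), with 37.7, 44.6, 118, 121 and 66.3 FPKM in injured TA, against 3.65, 0.569, 1.83, 2.84 and 5.55 FPKM in control TA. This was the largest value among the members, but without the control of animal 02 it was 4.39, against 4.40 for Col3a1. At 24 h the groups overlapped, with Col1a1 at 2.78, 9.63, 4.0, 14.3 and 9.0 FPKM in injured TA and 5.37, 6.42, 3.85, 3.13 and 6.79 FPKM in control TA. At 7 d Col1a1 was at 62.2, 23.1 and 15.7 FPKM in injured TA, against 4.99, 11, 1.68 and 13.3 FPKM in control TA, a log2 difference of 2.23 (SE 0.85, adjusted p = 0.0352). The lowest injured value at 7 d was close to the highest control. At 14 d Col1a1 was at 2.87, 4.83, 68.1, 75.8 and 77.2 FPKM in injured TA, against 9.99, 3.59, 5.62, 3.14 and 6.96 FPKM in control TA, and the log2 difference of 2.05 was not called (SE 0.70, adjusted p = 0.0787).

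Col1a2 gave a like series. At 24 h Col1a2 was at 5.08, 22.2, 8.45, 33.3 and 17.8 FPKM in injured TA, against 11.2, 15.7, 11, 7.19 and 16.9 FPKM in control TA, and the groups overlapped. At 72 h Col1a2 was at 71.5, 88.1, 174, 167 and 101 FPKM in injured TA, against 9.53, 4.47, 4.30, 4.93 and 10.9 FPKM in control TA, with no overlap and a log2 difference of 4.14 (SE 0.66, adjusted p = 1.31e-07). At 7 d Col1a2 was at 275, 57.6 and 35.9 FPKM in injured TA, against 19.8, 22.8, 3.73 and 30.9 FPKM in control TA (log2 difference 2.44, SE 0.80, adjusted p = 0.0142). At 14 d Col1a2 was at 7.00, 11.6, 111, 124 and 145 FPKM in injured TA, against 24.6, 10.1, 10.6, 7.28 and 14.7 FPKM in control TA. The first 2 injured libraries of 14 d thus lay within or below the control range for Col1a2 also, and the log2 difference of 1.83 was not called (adjusted p = 0.0971).

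**Figure D3:**
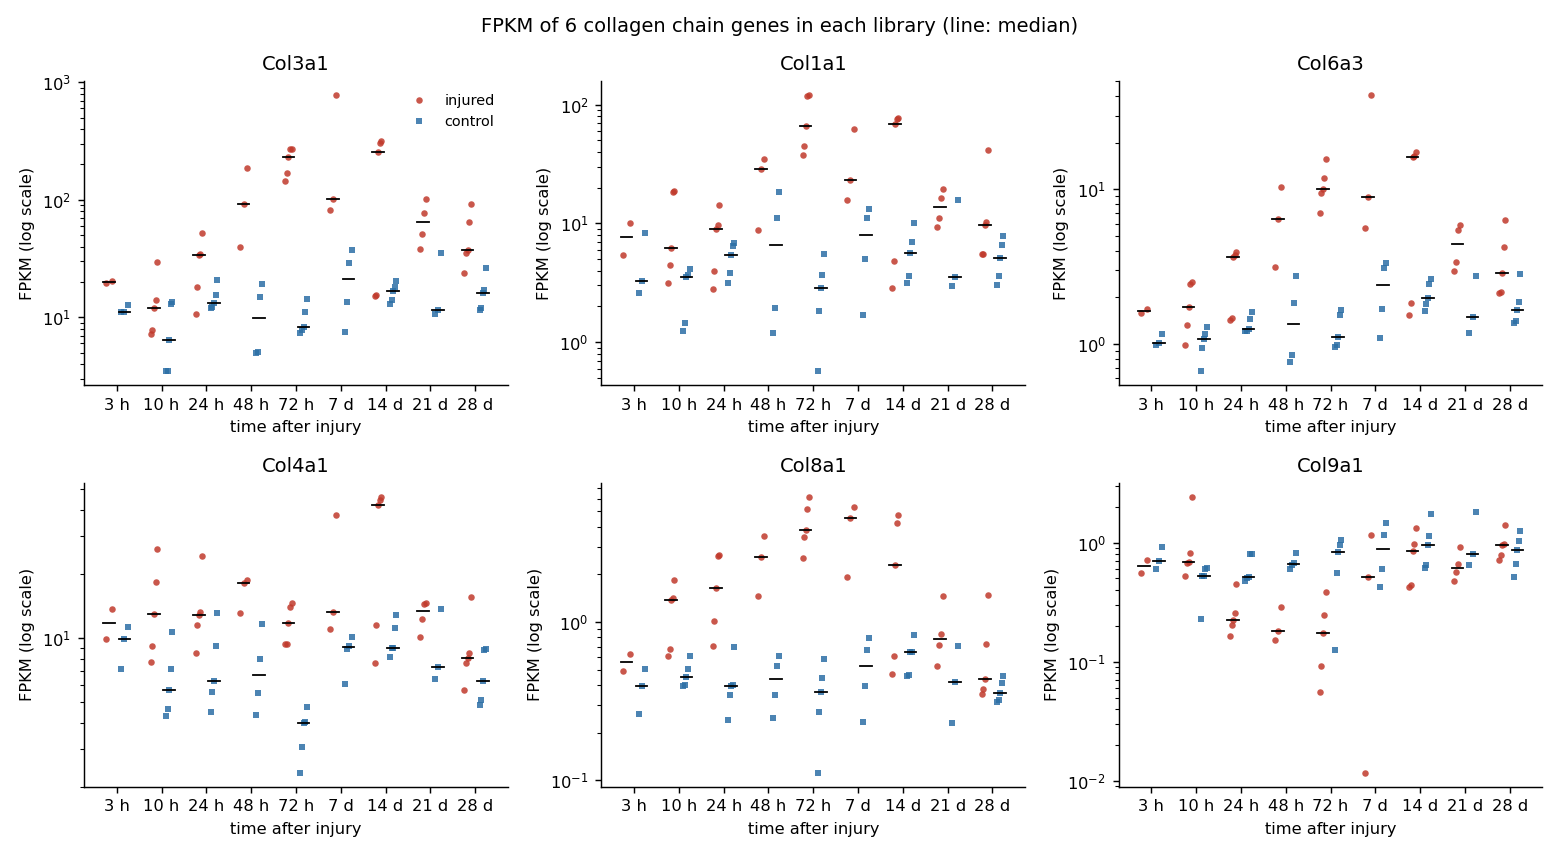
FPKM (log axes, 1 panel per gene) of Col3a1, Col1a1, Col6a3, Col4a1, Col8a1 and Col9a1 in every library against time after injury, injured in red left of control in blue, with lines at the medians. Col3a1 lies between 143 and 273 FPKM in the 5 injured libraries of 72 h, and at 14 d the panels other than Col9a1 show 3 injured libraries well above the rest.

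Type V chains co-assemble with type I and are known to set the diameter of the fibrils. Col5a2 (chromosome 1, 45431175 to 45560127, close to Col3a1) was at 15, 20.8, 36.4, 33.8 and 24.4 FPKM in injured TA at 72 h, against 1.60, 0.671, 0.922, 1.33 and 1.71 FPKM in control TA, a log2 difference of 4.28 (SE 0.50, adjusted p = 3.45e-11). At 24 h Col5a2 was at 2.25, 5.63, 2.41, 7.66 and 6.69 FPKM in injured TA, against 1.69, 2.85, 1.65, 1.55 and 1.75 FPKM in control TA. Only the control of animal 02 overlapped the injured range at 24 h, but the log2 difference of 1.19 was not called (adjusted p = 0.0582). At 7 d Col5a2 was at 59.3, 14.2 and 8.54 FPKM in injured TA, against 4.29, 2.02, 0.990 and 4.24 FPKM in control TA (log2 difference 2.92, adjusted p = 0.000151). At 14 d Col5a2 was at 1.78, 2.20, 21.9, 22.9 and 21.4 FPKM in injured TA, against 2.18, 1.87, 2.13, 1.78 and 2.76 FPKM in control TA (log2 difference 1.95, adjusted p = 0.0218). Col5a2 was higher in the injured leg in 35 of the 36 animals with both legs, a count matched among the members only by Col6a3. The same count was not made over all genes.

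Col5a1 and Col5a3, the other chains of type V, were called higher at 48 h and 72 h. Col5a1 at 72 h was at 5.54, 6.07, 13.9, 12.5 and 9.04 FPKM in injured TA, against 1.01, 0.224, 0.964, 0.900 and 1.32 FPKM in control TA (log2 difference 3.33, SE 0.45, adjusted p = 1.77e-09). At 24 h Col5a1 was at 1.33, 2.62, 1.95, 2.12 and 1.68 FPKM in injured TA, against 1.07, 1.20, 1.58, 0.943 and 0.933 FPKM in control TA, which was not called. At 7 d Col5a1 was at 14.8, 4.04 and 3.32 FPKM in injured TA, against 2.0, 1.29, 0.751 and 2.83 FPKM in control TA, and at 14 d at 1.24, 1.78, 9.90, 11.3 and 10.5 FPKM in injured TA, against 1.49, 1.37, 1.90, 1.33 and 1.90 FPKM in control TA. Both were called, at log2 differences of 1.86 (adjusted p = 0.00595) and 1.56 (adjusted p = 0.039). Col5a3 had a log2 difference of 2.60 at 72 h and was not called at 7 d (0.80, adjusted p = 0.196). Col24a1, a minor fibrillar chain known from bone, was the fibril-forming chain with no call at any time, although after quantile normalisation it was called lower at 24, 48 and 72 h. Its injured levels at 72 h, 0.147 to 0.813 FPKM, overlapped the control levels of 0.0441 to 0.567 FPKM. At 21 d and 28 d, however, the Col24a1 groups did not overlap, with 1.08 to 2.19 FPKM in injured and 0.253 to 1.05 FPKM in control TA at 21 d and 0.913 to 1.37 FPKM in injured and 0.360 to 0.644 FPKM in control TA at 28 d (adjusted p of 0.822 at 21 d and 1 at 28 d).

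Of the 4 basement membrane chains tested, 3 (Col4a1, Col4a2 and Col18a1) were called higher at 10 h, against 11.8% of all genes. This too depended on the scaling: upper-quartile scaling left Col18a1 alone, and after quantile normalisation none of the 4 was called at 10 h and the one member called was the fibril-forming Col1a2. The later counts were 1 at 24 h, 3 at 48 h, all 4 at 72 h, 2 at 7 d and 3 at 14 d. Beside these stood 17.6%, 33.1%, 50.2%, 21.6% and 2.89% of all genes, and no basement membrane chain was lower. Their median log2 difference at 72 h was 1.57, near the 1.01 of all genes. These calls at 72 h depended on the scaling: with quantile normalisation 0 of the 4 were called, with a median of 0.33 and Col15a1 at −0.19, and with upper-quartile scaling 1 was called, with a median of 0.75. Of the 4 endothelial markers 1 was called higher at 72 h, against 50.2% of all genes. The 4 markers summed to 12.9 to 18.8 FPKM in injured and to 2.97 to 14.8 FPKM in control muscle.

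Col4a1 and Col4a2 lie next to each other on chromosome 8 (11198422 to 11312826 and 11312828 to 11449287 in mm9) and encode the chains of the ubiquitous type IV network. Col4a1 at 24 h was at 8.48, 12.8, 11.5, 13.2 and 24.4 FPKM in injured TA, against 4.46, 6.31, 9.16, 5.56 and 13.0 FPKM in control TA. Its log2 difference of 0.88 passed the adjusted threshold (0.0489) but not the 2-fold limit. At 72 h Col4a1 was at 9.40, 9.35, 14.6, 11.8 and 14.0 FPKM in injured TA, against 3.98, 2.32, 3.07, 4.03 and 4.72 FPKM in control TA, with no overlap and a log2 difference of 1.69 (SE 0.36, adjusted p = 2.74e-05). At 7 d Col4a1 was at 37.8, 11 and 13.3 FPKM in injured TA, against 8.91, 10.1, 6.07 and 9.16 FPKM in control TA (1.06, adjusted p = 0.0481). At 14 d Col4a1 was at 11.5, 7.64, 42.2, 44.4 and 46.2 FPKM in injured TA, against 8.11, 8.96, 12.9, 11.2 and 8.94 FPKM in control TA (1.26, adjusted p = 0.0358). The 3 high injured libraries of 14 d were above every injured library of 72 h for Col4a1.

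Col4a2 at 24 h was at 5.46, 7.28, 6.62, 6.53 and 13.0 FPKM in injured TA, against 2.94, 3.84, 5.24, 3.25 and 7.71 FPKM in control TA, which was not called (0.77, adjusted p = 0.0814). At 72 h Col4a2 was at 5.07, 4.51, 7.06, 5.83 and 7.29 FPKM in injured TA, against 2.77, 0.656, 2.19, 3.23 and 3.37 FPKM in control TA (1.40, adjusted p = 0.000308). At 7 d the groups overlapped, with Col4a2 at 14.0, 5.22 and 7.51 FPKM in injured TA and 4.13, 7.13, 3.96 and 5.62 FPKM in control TA. At 14 d Col4a2 was at 6.20, 4.80, 21.0, 23.4 and 25.9 FPKM in injured TA, against 6.08, 5.98, 9.24, 6.86 and 6.11 FPKM in control TA, and the log2 difference of 0.94 was not called (adjusted p = 0.107).

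Col15a1 and Col18a1 encode the core chains of collagens XV and XVIII, and the end of the Col18a1 chain is the source of endostatin. Col15a1 was called only at 72 h and 14 d. At 24 h Col15a1 was at 1.19, 2.16, 1.23, 2.36 and 3.97 FPKM in injured TA, against 1.20, 1.13, 1.27, 1.83 and 2.65 FPKM in control TA. At 72 h Col15a1 was at 2.81, 2.44, 3.80, 2.93 and 2.58 FPKM in injured TA, against 1.26, 0.414, 0.845, 1.33 and 1.5 FPKM in control TA (1.45, adjusted p = 0.00046). At 7 d Col15a1 overlapped, with 7.03, 3.24 and 4.35 FPKM in injured TA and 3.47, 2.78, 1.36 and 3.68 FPKM in control TA. At 14 d Col15a1 was at 3.05, 2.85, 14.3, 15.8 and 15.3 FPKM in injured TA, against 2.76, 2.42, 4.45, 3.14 and 3.93 FPKM in control TA (1.25, adjusted p = 0.0478).

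Col18a1 and Col8a1 were the members called at every time from 10 h to 14 d. At 24 h Col18a1 was at 0.801, 1.24, 0.642, 0.786 and 2.82 FPKM in injured TA, against 0.369, 0.520, 0.236, 0.260 and 0.487 FPKM in control TA, with no overlap (1.36, SE 0.40, adjusted p = 0.00556). At 72 h Col18a1 was at 1.15, 1.49, 3.67, 3.01 and 2.02 FPKM in injured TA, against 0.255, 0.0767, 0.288, 0.400 and 0.330 FPKM in control TA (2.64, adjusted p = 3.43e-08). This was the largest difference among the basement membrane chains, and the control of animal 02 with few detected genes was again the lowest. At 7 d Col18a1 was at 4.60, 2.05 and 1.20 FPKM in injured TA, against 0.646, 0.606, 0.212 and 0.814 FPKM in control TA (1.92, adjusted p = 0.00143). At 14 d Col18a1 was at 0.521, 0.517, 3.37, 4.42 and 3.66 FPKM in injured TA, against 0.666, 0.472, 0.735, 0.436 and 0.693 FPKM in control TA (1.44, adjusted p = 0.0332).

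All 3 tested type VI chains (Col6a1, Col6a2 and Col6a3) were called higher at 48 h and 72 h, against 33.1% and 50.2% of all genes. Col6a3 alone was called higher at 7 d and 14 d (21.6% and 2.89% of all genes). With quantile normalisation or upper-quartile scaling Col6a3 alone was called at 48 h, and all 3 were called at 72 h. Upper-quartile scaling also called all 3 at 14 d. The median log2 difference of the 3 chains at 72 h was 3.03 in the fit described above. Col6a1 (76171536 to 76188789) and Col6a2 (76058500 to 76086149) lie close together on chromosome 10, Col6a3 (chromosome 1, 92663434 to 92740548) encodes the longest of the chains, and mutations in each of these genes are known to cause congenital muscular dystrophy in people. At 24 h Col6a1 was at 2.52, 7.22, 2.92, 6.91 and 5.10 FPKM in injured TA, against 3.51, 4.63, 3.03, 3.46 and 4.50 FPKM in control TA, and the groups overlapped. At 72 h Col6a1 was at 13.5, 18.2, 32.0, 26.4 and 22.0 FPKM in injured TA, against 3.79, 1.02, 2.35, 2.68 and 4.22 FPKM in control TA (3.03, SE 0.46, adjusted p = 3.29e-08). At 7 d Col6a1 was at 28.1, 11.2 and 9.19 FPKM in injured TA, against 10.1, 6.14, 2.77 and 10.4 FPKM in control TA, and at 14 d at 3.47, 5.54, 35.0, 38.0 and 41.4 FPKM in injured TA, against 6.10, 4.57, 7.79, 4.59 and 8.36 FPKM in control TA. The Col6a1 groups overlapped at both times and were not called (adjusted p of 0.11 at 7 d and 0.0676 at 14 d).

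Col6a2 at 24 h was at 2.17, 6.90, 2.44, 5.85 and 4.45 FPKM in injured TA, against 2.51, 3.30, 2.55, 3.11 and 3.33 FPKM in control TA. At 72 h Col6a2 was at 10.5, 13.4, 27.8, 24.3 and 22.0 FPKM in injured TA, against 2.64, 0.254, 1.79, 2.16 and 3.73 FPKM in control TA (3.41, SE 0.51, adjusted p = 2.05e-08). Col6a2 thus did not overlap at 72 h, and it overlapped at 24 h, 7 d and 14 d. At 7 d Col6a2 was at 23.8, 7.28 and 7.00 FPKM in injured TA, against 7.75, 4.77, 2.36 and 9.23 FPKM in control TA (0.99, adjusted p = 0.207). At 14 d Col6a2 was at 3.23, 4.76, 33.8, 40.5 and 38.1 FPKM in injured TA, against 5.17, 3.65, 6.87, 4.52 and 7.68 FPKM in control TA (1.49, adjusted p = 0.0759).

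Col6a3 at 24 h was at 1.42, 3.64, 1.48, 3.75 and 3.95 FPKM in injured TA, against 1.21, 1.44, 1.22, 1.24 and 1.60 FPKM in control TA, which was not called (0.90, adjusted p = 0.113). At 72 h Col6a3 was at 7.07, 9.51, 15.8, 11.8 and 9.99 FPKM in injured TA, against 1.54, 0.955, 0.979, 1.10 and 1.65 FPKM in control TA (3.01, SE 0.45, adjusted p = 2.59e-08). At 7 d Col6a3 was at 40.9, 8.93 and 5.65 FPKM in injured TA, against 3.32, 1.68, 1.09 and 3.09 FPKM in control TA (2.55, adjusted p = 0.000191). Col6a3 did not overlap between the groups at either time. At 14 d Col6a3 was at 1.54, 1.83, 16.3, 17.4 and 16.4 FPKM in injured TA, against 1.81, 1.64, 2.63, 1.97 and 2.43 FPKM in control TA (1.66, adjusted p = 0.0287).

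Of the 7 other chains tested, 3, 1, 3, 4, 4 and 3 were called higher at 10, 24, 48 and 72 h and 7 and 14 d. Of all genes 11.8%, 17.6%, 33.1%, 50.2%, 21.6% and 2.89% were called higher at these times. Col9a1 was called lower at 24, 48 and 72 h, against 0.661%, 1.56% and 0.612% of all genes. The 7 chains serve unlike roles. Col12a1 and Col14a1 encode chains that decorate the surface of fibrils, Col8a1 a network-forming chain of vessel walls, Col16a1 a minor fibril-associated chain, Col22a1 a chain of the muscle to tendon junction, Col7a1 the anchoring fibrils of skin, and Col9a1 a chain of the fibrils of cartilage. The 4 called higher at 72 h were Col8a1, Col12a1, Col14a1 and Col16a1. Of these, Col8a1, Col12a1 and Col16a1 entered the test only through injured groups where they were high, which favours a higher call.

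Col8a1 at 24 h was at 1.02, 1.65, 0.708, 2.62 and 2.64 FPKM in injured TA, against 0.239, 0.695, 0.393, 0.344 and 0.402 FPKM in control TA, with no overlap. Its log2 difference at 24 h, 1.73 (SE 0.40, adjusted p = 0.0005), was the largest of the members at that time. At 72 h Col8a1 was at 3.46, 3.82, 5.16, 6.21 and 2.55 FPKM in injured TA, against 0.445, 0.111, 0.271, 0.587 and 0.360 FPKM in control TA (3.29, adjusted p = 1.13e-10). At 7 d Col8a1 was at 5.30, 4.57 and 1.92 FPKM in injured TA, against 0.394, 0.668, 0.235 and 0.791 FPKM in control TA (2.68, adjusted p = 2.01e-05). At 14 d Col8a1 was at 0.611, 0.473, 4.22, 4.72 and 2.28 FPKM in injured TA, against 0.827, 0.462, 0.647, 0.457 and 0.651 FPKM in control TA (1.39, adjusted p = 0.0419). Col8a1 was called at every time from 10 h, when its adjusted p was 0.0492, to 14 d.

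Col14a1 at 24 h was at 0.208, 0.895, 0.232, 0.886 and 0.564 FPKM in injured TA, against 0.530, 1.46, 0.183, 0.228 and 0.254 FPKM in control TA, and the groups overlapped. At 72 h Col14a1 was at 2.24, 3.47, 3.83, 3.83 and 4.21 FPKM in injured TA, against 0.323, 0.129, 0.156, 0.165 and 0.349 FPKM in control TA (3.51, adjusted p = 1.03e-07). At 7 d Col14a1 was at 17.9, 2.72 and 1.80 FPKM in injured TA, against 0.524, 0.317, 0.0592 and 0.916 FPKM in control TA (3.34, adjusted p = 8.85e-05). The log2 difference of Col14a1 was thus about as large at 7 d as at 72 h, with the highest level again in animal 02. At 14 d Col14a1 was at 0.172, 0.417, 5.05, 5.03 and 4.33 FPKM in injured TA, against 0.492, 0.263, 0.325, 0.173 and 0.514 FPKM in control TA (2.01, adjusted p = 0.032).

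Col16a1 at 24 h was at 0.382, 0.624, 0.323, 0.721 and 0.966 FPKM in injured TA, against 0.255, 0.498, 0.184, 0.176 and 0.253 FPKM in control TA (0.89, adjusted p = 0.131). At 72 h Col16a1 was at 1.62, 2.68, 4.38, 3.6 and 2.36 FPKM in injured TA, against 0.190, 0.0568, 0.0620, 0.141 and 0.211 FPKM in control TA (3.69, adjusted p = 2.63e-10). The injured values of 72 h were all above 1 FPKM and the controls all near or under 0.2 FPKM. At 7 d Col16a1 was at 6.13, 2.08 and 1.10 FPKM in injured TA, against 0.297, 0.433, 0.0739 and 0.465 FPKM in control TA (2.74, adjusted p = 0.000114). At 14 d Col16a1 was at 0.250, 0.263, 2.38, 2.71 and 2.67 FPKM in injured TA, against 0.397, 0.272, 0.266, 0.222 and 0.318 FPKM in control TA (1.61, adjusted p = 0.0394). Col12a1 had the largest log2 difference of the called members at 10 h, 1.49 (SE 0.54, adjusted p = 0.0392), with 0.246 to 0.795 FPKM in injured and 0.0541 to 0.187 FPKM in control TA, and reached 3.14 at 72 h. Of the 5 tendon markers (Tnmd, Scx, Mkx, Thbs4 and Comp), 2 were called higher at 10 h, against 11.8% of all genes. The 5 markers then summed to 30.5 to 183 FPKM in injured and to 9.22 to 22.6 FPKM in control muscle. The part of tendon cells in the Col12a1 difference was not tested.

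Col9a1 was the single member called lower in the fit described above, while after quantile normalisation Col7a1, Col22a1 and Col24a1 were called lower as well. At 24 h Col9a1 was at 0.447, 0.164, 0.257, 0.222 and 0.202 FPKM in injured TA, against 0.796, 0.506, 0.804, 0.516 and 0.472 FPKM in control TA, with no overlap (−1.02, SE 0.40, adjusted p = 0.0389). At 72 h Col9a1 was at 0.246, 0.388, 0.0553, 0.0921 and 0.173 FPKM in injured TA, against 1.05, 0.125, 0.831, 0.555 and 0.954 FPKM in control TA (−1.38, SE 0.40, adjusted p = 0.0016). The control of animal 02 was the one that overlapped the injured range at 72 h. At 7 d Col9a1 was at 0.0117, 0.509 and 1.15 FPKM in injured TA, against 0.422, 1.45, 0.597 and 1.17 FPKM in control TA, and at 14 d at 0.441, 1.31, 0.852, 0.426 and 0.978 FPKM in injured TA, against 1.73, 0.953, 0.607, 0.646 and 1.14 FPKM in control TA. Neither was called (adjusted p of 0.0785 at 7 d and 0.763 at 14 d). All values of Col9a1 are low, and the muscle fiber markers summed to 16964.7 to 41936.6 FPKM in injured and 34334.7 to 55188.9 FPKM in control muscle at 72 h, their part in the Col9a1 difference not being tested.

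Col7a1 and Col22a1, the other chains with the highest mean level of this class, were called at no time in the fit described above. After quantile normalisation Col7a1 was called lower at 24 h (−1.51) and 72 h (−1.65) and Col22a1 at 24 h (−2.25), 48 h (−2.64) and 72 h (−2.01), and with upper-quartile scaling Col22a1 was lower at 48 h (−1.74). Col7a1 at 24 h was at 0.872, 0.900, 1.25, 0.741 and 0.830 FPKM in injured TA, against 2.19, 1.99, 1.71, 1.06 and 1.16 FPKM in control TA (−0.72, adjusted p = 0.24). At 72 h Col7a1 was at 1.79, 2.02, 0.396, 1.26 and 1.56 FPKM in injured TA, against 2.17, 0.0582, 2.23, 2.04 and 1.42 FPKM in control TA (0.14, adjusted p = 0.792), and without the control of animal 02 the log2 difference was −0.59. At 7 d Col7a1 was at 0.268, 4.16 and 3.55 FPKM in injured TA, against 0.267, 1.58, 2.31 and 1.41 FPKM in control TA, where both legs of animal 02 were lowest. At 14 d Col7a1 was at 3.37, 1.77, 1.79, 2.40 and 3.20 FPKM in injured TA, against 2.48, 1.97, 1.91, 1.29 and 2.36 FPKM in control TA, and here the injured libraries of animals 01 and 02 did not stand apart from the rest.

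Col22a1 at 24 h was at 0.219, 0.316, 0.635, 0.323 and 0.345 FPKM in injured TA, against 1.37, 0.457, 1.11, 0.481 and 2.07 FPKM in control TA, and the log2 difference of −1.22 was not called (SE 0.61, adjusted p = 0.115). At 72 h Col22a1 was at 1.10, 1.23, 0.166, 0.178 and 1.56 FPKM in injured TA, against 1.16, 0.111, 0.647, 0.731 and 1.68 FPKM in control TA. The spread among Col22a1 libraries of 1 group was as wide as the gap between groups. At 7 d Col22a1 was at 0.202, 1.05 and 1.69 FPKM in injured TA, against 0.104, 2.68, 0.551 and 2.55 FPKM in control TA, and at 14 d at 1.18, 1.20, 1.08, 1.82 and 5.37 FPKM in injured TA, against 3.18, 1.95, 1.10, 0.218 and 0.786 FPKM in control TA.

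The time of the highest level depended on how the libraries of a group were combined. For 17 of the 21 tested members the log2 difference was largest at 72 h. The mean injured level was highest at 72 h for 4 members, at 7 d for 8, at 14 d for 7 and at 10 h for the other 2, while the median injured level was highest at 14 d for 14. The libraries that set the 7 d and 14 d means were few: animal 02 at 7 d and animals 03, 04 and 05 at 14 d.

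At 14 d the injured legs fell apart into libraries at control level and libraries far above it. The collagen sums were 70.0 and 76.6 FPKM in the injured TA of animals 01 and 02, and 737, 767 and 745 FPKM in that of animals 03, 04 and 05, against 68.6 to 104.8 FPKM in the 5 controls. Of the 21 tested members, 4 and 14 were higher in the injured than in the control leg of animals 01 and 02, and 19, 20 and 20 in animals 03, 04 and 05. The macrophage markers summed to 15.2 and 16.2 FPKM in the injured TA of animals 01 and 02 and to 294, 214 and 188 FPKM in that of animals 03 to 05, against 10.8 to 21.6 FPKM in the controls. The fibroblast markers summed to 58.5 and 63.4 FPKM in the injured TA of animals 01 and 02 and to 213, 181 and 203 FPKM in that of animals 03 to 05, against 57.6 to 73.5 FPKM in controls. Animals 01 and 02 were thus at control level by these markers as well as by collagen. Every mean, call and log2 difference of 14 d includes them. The 10 calls at 14 d rest on this mixture: without the injured library of animal 03, 04 or 05 no member was called, without that of animal 01 or 02 17 were called, without 1 control library 0 to 5 were called, and without both injured libraries of animals 01 and 02 19 of 22 tested members were called, against 17.0% of all genes called higher in that fit.

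**Figure D4:**
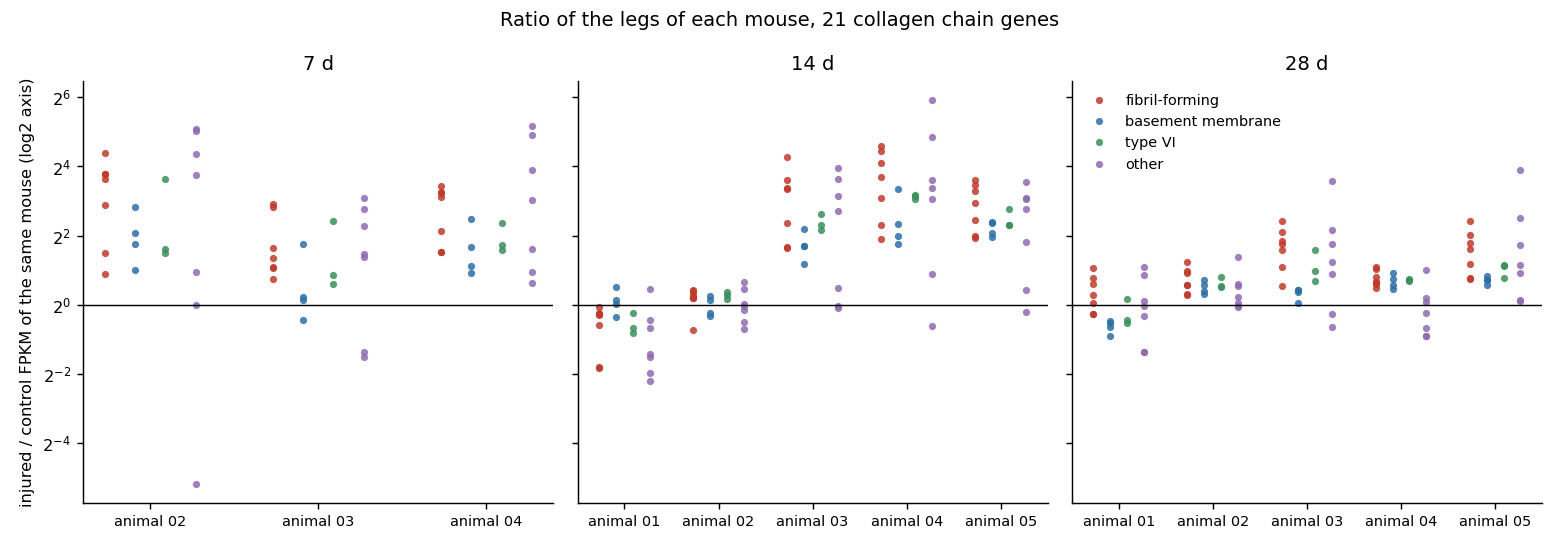
Ratio of injured to control FPKM of the 21 tested members within each animal with both legs (log2 axis, 1 point per member colored by class, a line at a ratio of 1), at 7 d, 14 d and 28 d. At 14 d animals 01 and 02 (4 and 14 members higher) stand apart from animals 03 to 05 (19 or 20 higher).

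Within animals, 21 of 21 members were higher in the injured leg of animal 02 at 72 h and 17, 17, 17 and 18 in the other 4 animals of that time. At 21 d 20, 20 and 11 members were higher in the injured leg of the 3 animals with both legs, and at 28 d 9, 19, 19, 17 and 21 in animals 01 to 05. Injured and control libraries of all animals were fully separated for 6 tested members at 21 d (Col3a1, Col5a1, Col5a2, Col6a2, Col6a3 and Col24a1), against 6.33% of all genes with every injured library above every control, and for Col24a1 alone at 28 d, against 1.07%. At 28 d the injured TA of animal 05 stood above the others, with a collagen sum of 318 FPKM against 85.4 to 155 FPKM in the other 4, a macrophage marker sum of 149 FPKM and a fibroblast marker sum of 229 FPKM.

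To ask whether the injury difference itself changed between times, the log2 difference at 7 d was compared with that at 72 h in the same fit. No member's difference was larger at 7 d, and 4 were smaller, against 0.76% and 31.1% of all genes. These were Col1a1 (−2.62, SE 1.10, adjusted p = 0.0496), Col6a2 (−2.42, adjusted p = 0.0141), Col6a1 (−1.91, adjusted p = 0.0296) and Col5a3 (−1.80, adjusted p = 0.0198). The median change of the tested members, −0.72, was close to the −0.78 of all genes. For Col3a1 and Col14a1 the change did not pass the threshold, and both kept log2 differences over 3 at 7 d. The result rests on single libraries: without the control of animal 02 at 72 h or the injured TA of animal 03 at 7 d no member was called, without the injured TA of animal 02 at 7 d 7 were called, without the control of animal 05 at 7 d 1 was called, without the injured TA of animal 03 at 72 h or of animal 04 at 7 d 2 were called, and with upper-quartile scaling none was. After quantile normalisation none of these 4 was called, and the calls ran the other way, with Col9a1 and Col24a1 larger at 7 d and none smaller, against 7.0% and 8.87% of all genes.

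Between 7 d and 14 d no member's injury difference changed past the threshold, against 0.314% of all genes, and 1 member (Col8a1) had an unadjusted p under 0.05. The median change of the members was −0.26, and that of all genes −0.13. At 7 d itself, 7 members were called without the injured TA of animal 02 and 7 without both legs of that animal, whose macrophage markers summed to 4308 FPKM in injured muscle, against 224 and 273 FPKM in the other injured libraries. Without both legs 8.11% of all genes were called higher, and the 7 members were Col3a1, Col5a2, Col6a3, Col8a1, Col14a1, Col16a1 and Col19a1.

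The balance among chains was compared as ratios within a library, with exact two-sided permutation tests over libraries. A plain ratio, as in the ranges below, does not depend on how the library was scaled. The log2 differences and tests added 0.1 FPKM to both terms, so for chains near 0 some dependence on scaling remains. Over 4 ratios and 9 times, 36 tests in all, none passed an adjusted p of 0.05, the lowest being 0.229. Without the added 0.1 the lowest adjusted p of these tests was also 0.229. The smallest p that any time allowed was 0.0079, too large for a single ratio at a single time to pass the adjustment over 36 tests on its own. The summed fibril-forming to summed basement membrane FPKM was 14.8 to 25.6 in injured TA at 72 h, against 2.23 to 3.94 in control TA. The groups did not overlap, with a log2 difference of 2.60 and an exact permutation p of 0.0079, the smallest that 5 against 5 libraries allow. At 7 d the ratio was 5.72 to 18.7 in injured and 1.49 to 4.45 in control TA (log2 difference 1.77, exact permutation p = 0.0286, the smallest for 3 against 4). At 14 d it was 1.47 to 6.67 in injured and 1.43 to 3.43 in control TA (0.92, exact permutation p = 0.119), and at 28 d 3.01 to 7.05 in injured and 1.93 to 4.01 in control TA (0.93, exact permutation p = 0.0238). At 24 h the ratio ranged from 1.5 to 4.88 in injured and from 1.77 to 4.14 in control TA, a log2 difference of −0.20.

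**Figure D5:**
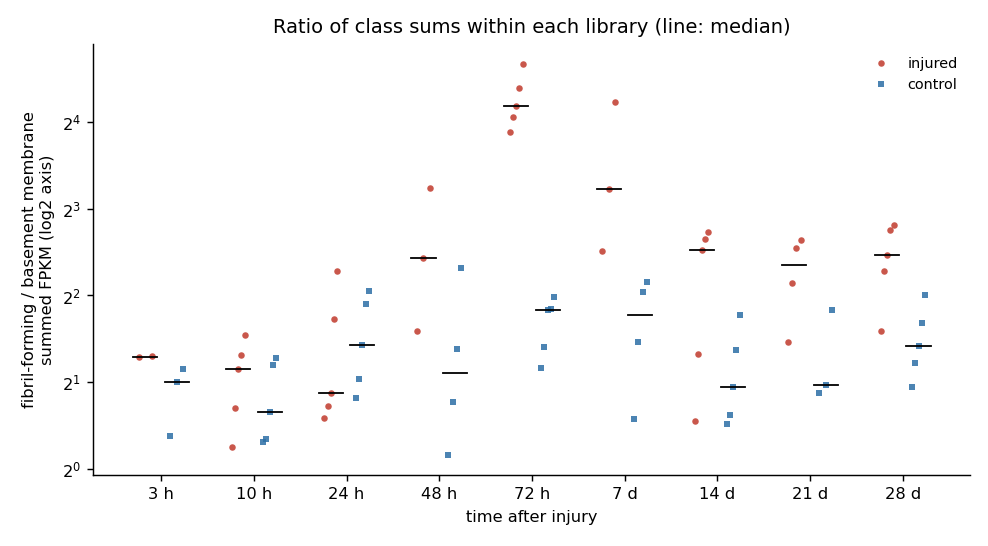
Ratio of summed fibril-forming to summed basement membrane FPKM within each library (log2 axis) against time after injury, injured in red left of control in blue, with lines at the medians. The 5 injured libraries of 72 h lie between 14.8 and 25.6 and every control library of that time lies below 4.

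Ratios between single chains were compared in the same way. Col4a2 to Col4a1 was 0.497 to 0.628 in injured and 0.614 to 0.749 in control TA at 14 d, a log2 difference of −0.32 (exact permutation p = 0.0159, adjusted p = 0.229). At 28 d the log2 difference of that ratio was −0.21 (exact permutation p = 0.0476). Col1a2 to Col1a1, whose chains combine in a fixed proportion in the type I molecule, was 1.38 to 1.98 in injured and 1.74 to 7.85 in control TA at 72 h, a log2 difference of −0.71 (exact permutation p = 0.0397, adjusted p = 0.238). The upper end of that control range, 7.85, came from the control of animal 02, in which Col1a1 was at 0.569 FPKM and Col1a2 at 4.47 FPKM. Col3a1 to Col1a1 was 0.744 to 2.31 in injured and 1.84 to 3.66 in control TA at 10 h (log2 difference −0.76, exact permutation p = 0.0317), and 2.26 to 3.81 in injured and 2.57 to 13.6 in control TA at 72 h (−0.38, exact permutation p = 0.524). At 48 h the difference had the other sign, with 3.20 to 5.35 in injured and 0.796 to 4.15 in control TA (1.14, exact permutation p = 0.114), and likewise at 7 d, with 4.42 to 12.6 in injured and 1.23 to 7.52 in control TA (1.12, exact permutation p = 0.229).

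The 23 members below 1 FPKM in every group were Col2a1, Col11a1, Col11a2 and Col27a1 among the fibril-forming chains, Col4a3, Col4a4, Col4a5 and Col4a6 among the basement membrane chains, Col6a4, Col6a5 and Col6a6 of type VI and 12 other chains. Their highest group means ran from 0.0266 to 0.983 FPKM, and 13 of them were listed at 0 in at least 1 library. With no filter on low values, 7 of the 23 were called higher at 72 h and none lower, against 36.6% of all genes higher. Among these Col27a1, a fibrillar chain of cartilage, was at 0.542, 1.19, 1.16, 1.25 and 0.75 FPKM in injured TA at 72 h, against 0.0638, 0.00881, 0.0417, 0.0709 and 0.0754 FPKM in control TA. Col4a5, a type IV chain of kidney and other basement membranes, was at 0.296 to 0.640 FPKM in injured and 0.0464 to 0.110 FPKM in control TA at 72 h. Neither Col27a1 nor Col4a5 overlapped between the groups at 72 h. This did not set them apart, since 30 of the 44 members had every injured library above every control at that time. In the same fit Col2a1 and Col13a1 were called higher at 10 h (1536 of 19956 genes), and Col19a1, Col20a1 and Col27a1 at 48 h (4669 genes). At 7 d Col4a5, Col19a1, Col23a1, Col26a1, Col27a1 and Col28a1 were called higher (3308 genes). At 14 d Col6a6, Col19a1, Col26a1 and Col28a1 were (385 genes). The cartilage chain Col2a1 stood out in 2 control libraries, at 1.77 FPKM in animal 03 of 7 d and 1.64 FPKM in animal 05 of 21 d, together with Col10a1 (0.824 and 1.00 FPKM), Col9a3 (0.582 and 0.479 FPKM) and Col9a2 (0.396 and 0.540 FPKM). In these libraries Acan, from the list of 3 cartilage markers (Acan, Sox9 and Matn1), was at 0.166 and 0.214 FPKM, against 0 in the other controls of those times. The 3 markers together summed to 0.197 to 0.355 FPKM over all controls of 7 d and to 0.143 to 0.378 FPKM over those of 21 d. Whether these 2 libraries held cartilage was not tested.

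Enzymes and carriers that fold and modify collagen chains were counted over lists chosen for their roles, beside the share of all genes called higher at the same time. Of 18 tested folding and modification genes 16 were called higher at 72 h (50.2% of all genes) and none lower. The higher calls numbered 5 at 24 h (17.6%) and 11 at 48 h (33.1%) before that time, and 8 at 7 d (21.6%) and 3 at 14 d (2.89%) after it. Serpinh1, the collagen-specific chaperone HSP47, was at 101 ± 40.5 FPKM in injured and 8.90 ± 2.42 FPKM in control TA at 72 h (SD, n = 5 each), a log2 difference of 3.44. Ppib, a cyclophilin that helps the chains fold, was at 187 ± 91.0 FPKM in injured and 14.7 ± 2.32 FPKM in control TA (3.54), and P4hb, a subunit of prolyl 4-hydroxylase, was at 152 ± 45.8 FPKM in injured and 31.7 ± 12.4 FPKM in control TA (2.36). At 14 d Serpinh1 was called at 1.28 (adjusted p = 0.0352).

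Of the 4 tested crosslinking genes, which oxidise lysine residues so that chains and molecules can be joined, 3 were called higher at both 10 and 24 h (11.8% and 17.6% of all genes) and 4 at both 48 and 72 h (33.1% and 50.2%), and then 3 at 7 d (21.6%) and none at 14 d (2.89%). Lox, the lysyl oxidase, had a log2 difference of 4.29 at 10 h (adjusted p = 1.19e-06). None of the fibril-forming chains was called at 10 h in the fit described above, although Col1a2 was after quantile normalisation. The absence of calls does not mean that these chains were unchanged at 10 h. By log2 difference Col1a2 and Col1a1 then stood at percentiles 94.64 and 93.95 of all genes, and both were higher in the injured leg of 5 of 5 animals. At 72 h Lox was at 18.1 ± 5.41 FPKM in injured and 0.533 ± 0.221 FPKM in control TA (SD, n = 5 each; 4.86), Loxl1 had a log2 difference of 3.41 and Loxl2 of 3.11. Of 5 procollagen cleavage genes, all were called higher at 72 h, among them Bmp1, the C-proteinase (3.24), its enhancer Pcolce (3.24) and Pcolce2 (1.93).

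Of the 8 tested fibril-binding proteoglycans 6 were called higher at 72 h, against 50.2% of all genes. The counts of 2, 1 and 2 at 10, 24 and 48 h stand beside 11.8%, 17.6% and 33.1% of all genes, so that those of 24 and 48 h were below the share of all genes, and 3 were called at 7 d (21.6%) and 2 at 14 d (2.89%). Bgn, the proteoglycan biglycan, was at 94.4 ± 32.5 FPKM in injured and 4.79 ± 1.62 FPKM in control TA at 72 h (4.29), whereas Dcn, its relative decorin and the gene of this list at the highest level, was at 242 ± 86.4 FPKM in injured and 97.3 ± 33.6 FPKM in control TA (1.31). Lum, lumican, had a log2 difference of 2.58. Of 6 collagen receptors 5 were called higher at 72 h, with Ddr2, a fibrillar collagen receptor, at 2.48, Itgb1 at 1.65 and Ddr1 at 1.49. Of 11 basement membrane partners 9 were called higher at 72 h, among them Nid1 (1.88) and the laminin chain gene Lamc1 (1.49), while Lamb2 at 0.49 was not called (adjusted p = 0.078). No gene of these lists was called lower at any time. As for the type IV chains, these counts stand beside a share of 50.2% of all genes called higher at 72 h.

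The isoform table held 46 isoforms of the members, of which 21 passed the same filter. Only Col18a1 and Col6a6 had 2 isoforms listed, and in neither did both pass, so a change of isoform use could not be tested. Called isoforms numbered 5, 4, 16, 18, 10 and 7 at 10, 24, 48 and 72 h and 7 and 14 d, against 11.6%, 17.8%, 33.7%, 49.7%, 23.3% and 1.95% of all isoforms tested at these times. With a pseudocount of 1 in place of 0.1, these counts were 1, 0, 9, 15, 9 and 6 in the same order. The longer Col18a1 isoform (chromosome 10, 76514923 to 76629275) made up 82.6% ± 10.0 of the Col18a1 FPKM in injured and 82.8% ± 12.9 in control TA at 72 h (SD, n = 5 each).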

How the data were processed

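Poly(A) RNA of injured and contralateral TA muscle was sequenced by the authors as strand-specific paired-end libraries. The values are FPKM as deposited by the authors, who mapped reads to mm9 with TopHat and made the values with Cufflinks and Cuffdiff. Whether Cuffdiff rescaled the libraries is not given in the sources used here, so differences in total RNA content between legs cannot be separated from scaling. The gene table held 80 library columns, and 12 of the 92 labelled samples were not analysed here. No column of another series was found, and the tables held no fold changes or p-values of the authors.

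Groups were taken from the labels. The 2 libraries of each leg of animal 03 at 24 h were averaged, which left 76 libraries. The incomplete injured library of animal 05 at 7 d and the control of unknown time were left out. After the averaging each leg used gave 1 library, and some animals gave only 1 leg, so libraries of a group are separate mice. Differences were tested with limma 3.58.1 in R 4.3.3 (lmFit, eBayes with trend, 58 residual degrees of freedom, 18 groups) on log2(FPKM + 0.1), over the 12099 genes whose mean reached 1 FPKM in some group. The code was tested on simulated data. Same-numbered legs come from 1 animal, and their deviations from the group means correlated at −0.28 to 0.67. The fit with the animal as replicate block was an alternative, and the study's methods do not use one. Ratios, as log2 with 0.1 FPKM added to both terms, were tested by exact permutation over libraries. Sequences are from RefSeq. Figures and counts were made in Python 3.11.15.

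Values by library at 24 h, 72 h, 7 d and 14 d were printed for the 3 members of each class with the highest mean FPKM and for any other member called at 14 d or later or called lower. From each partner list up to 3 genes with the highest mean FPKM were named. Others were chosen after their values were seen. The members and lists were chosen with earlier results of these data known. Alternatives covered the pseudocount, the filter, the fold limit, the scaling, the comparator, library weights, the block, the libraries of animal 03 at 24 h, values listed at 0, and leaving out each library.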

Additional observations from a re-analysis of the deposited data

Results flagged for a closer look

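Collagen sums were examined in 65 groups of 4 or 5 libraries, each class and all members apart, so that the groups share libraries. In 5 of them 1 library lay far from the rest by Dixon's test, a test that chance alone passes in about 1 of 20 groups. At 28 d all 3 such sums came from the injured TA of animal 05: basement membrane chains summed to 32.5 FPKM (group median 16.6 FPKM), type VI chains to 42.6 FPKM (median 18.1 FPKM) and other chains to 13.9 FPKM (median 6.14 FPKM). At 24 h the basement membrane chains summed to 44.4 FPKM in the injured TA of animal 05 (median 23.4 FPKM). At 72 h the other chains summed to 0.869 FPKM in the control TA of animal 02 (median 5.03 FPKM), the library with the fewest detected genes.

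The injury difference of 4 members differed between times in the limma fit, being smaller at 7 d than at 72 h by the log2 changes of −2.62 for Col1a1, −1.91 for Col6a1, −2.42 for Col6a2 and −1.80 for Col5a3. The difference was likewise smaller for 31.1% of all genes, a share that the members did not exceed. No member was called with upper-quartile scaling, and after quantile normalisation none of these 4 was called while Col9a1 and Col24a1 were larger at 7 d (7.0% of all genes). Leaving out 1 library gave 0 to 7 calls.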

How the results depend on the processing

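The counts at 3 h, where no member was called, and at 72 h stayed within 1.5 times their number in the alternatives run. The 72 h calls kept their direction except for Col15a1, which was reversed at −0.19 after quantile normalisation. The split of the 72 h calls into higher and lower also moved with quantile normalisation. With the animal as replicate block 7, 4, 16, 18, 13 and 14 members were called at the 6 times from 10 h to 14 d, and 3 for the 7 d against 72 h difference, and the block moved no count by over 1.5 times. In that fit 1495, 2154, 4117, 6085, 2767 and 671 of all 12099 genes were higher at these times. For 3394 genes the difference was smaller at 7 d than at 72 h. With a pseudocount of 1 the count was 1 at 10 h and 0 at 24 h (all genes: 703 and 1041 higher). Isoform calls were then 1, 0 and 9 at 10, 24 and 48 h (707, 1038 and 2643 of 12656 isoforms higher). With a limit of 5 FPKM on the highest group mean the member count was 2 at 10 h, 0 at 24 h, 7 at 7 d and 6 at 14 d, where fewer members were tested. Beside these stood 933, 1310, 1469 and 141 of 7848 genes called higher. Quantile normalisation gave 1 at 10 h, 7 at 48 h and 2 for 7 d against 72 h (both larger at 7 d). Upper-quartile scaling gave 3 at 10 h, 9 at 48 h and 0 for 7 d against 72 h (all genes: 1144 and 2480 higher, 1099 smaller at 7 d). Each time point fitted alone gave 5 at 24 h and 0 at 7 d and 14 d (all genes: 2100, 95 and 0 higher). All controls as comparator gave 7 at 24 h, 18 at 14 d, 3 at 21 d, 1 at 28 d and 0 for 7 d against 72 h. Over all genes 2354, 1400, 166 and 35 were higher, and 1537 had a smaller difference at 7 d than at 72 h. Library weights gave 12 at 10 h, 1 at 24 h, 18 at 14 d, 6 at 21 d, 2 at 28 d, 14 for 7 d against 72 h and 9 for 14 d against 7 d. With these weights 1814, 1768, 1986, 396 and 74 of all 12099 genes were higher at 10 and 24 h and 14, 21 and 28 d. For 7 d against 72 h 111 genes were larger and 3909 smaller, and for 14 d against 7 d 297 and 158. Keeping the incomplete 7 d library gave 0, 1 and 8 at 10, 24 and 48 h, 6 at 7 d, 0 at 14 d and 14 for 7 d against 72 h, and reversed Col4a1 at 7 d to −0.80. With that library 824, 1530 and 2524 of 12029 genes were higher at 10, 24 and 48 h, and 10 at 14 d. At 7 d 827 genes were higher and 5300 lower. As many as 10236 of the 12029 genes had a smaller difference at 7 d than at 72 h. The B libraries alone for animal 03 at 24 h gave 2 at 14 d (165 of 12103 genes higher). Leaving out libraries chosen after seeing the data gave 19 at 14 d (injured animals 01 and 02) and 7 at 7 d (both legs of animal 02). Beside these stood 2064 of 12142 and 969 of 11943 genes called higher. For all of these settings the cause was not tested. Leaving out 1 library at a time gave 0 to 0 (3 h), 0 to 7 (10 h), 1 to 5 (24 h), 6 to 16 (48 h), 18 to 19 (72 h), 7 to 15 at 7 d, 0 to 17 at 14 d, 0 at 21 d and 28 d, 0 to 7 for 7 d against 72 h and 0 for 14 d against 7 d. The depth of each library is unknown, so no counting limit can be set for the members near 0 FPKM.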
